A study of Mus musculus with 6 samples.

Results

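The TNF superfamily is a family of cell surface or shed cytokines and of the receptors that bind them. Its members were taken here by gene symbol, as every *Tnfsf* or *Tnfrsf* symbol that continues with digits and at most 1 lowercase letter, together with *Tnf*, *Lta*, *Ltb*, *Ltbr*, *Cd40*, *Cd27*, *Cd70*, *Fas*, *Fasl*, *Eda*, *Edar* and *Ngfr*. This gave 43 of the 24982 genes listed, 17 ligands and 26 receptors. RNA-seq was done on 2 murine keratinocyte lines from neonatal skin of the C57BL/6 strain, without treatment, with 3 libraries per line. The KSFM-Ca2+ cells were derived and kept in KSFM-Ca2+, a keratinocyte medium low in calcium. The DKSFM cells are surviving descendants of that line that adapted to DKSFM, a defined keratinocyte medium, so descent, medium and selection cannot be told apart. What a replicate was is not stated in the sources used here, so the p-values measure only the spread between these libraries, which may be technical. Because each value is an average over a whole culture, fewer expressing cells and less RNA per cell cannot be told apart.

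Ligands of this family mostly assemble as trimers and draw their receptors together on the cell that responds. Receptors with a death domain can recruit adaptors such as TRADD or FADD and lead to inflammatory gene expression or to cell death, whereas most other receptors bind TRAF proteins directly. In skin, keratinocytes both make TNF and respond to it, and ectodysplasin signalling through EDAR is required for hair follicles and other skin appendages to form.

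The authors deposited the mean read coverage per base of each gene, a signal written in steps of 0.1, and the values given here are this coverage after normalization between libraries. Since it is per base, levels can be compared between genes. Total deposited coverage over all genes came to 1601676, 1238411 and 1057750.5 for KSFM-Ca2+ replicates 1 to 3, and 1174348, 1239438 and 1170675 for DKSFM replicates 1 to 3. Differences were tested with limma on log2(normalized coverage + 0.1), DKSFM over KSFM-Ca2+, a scale that understates changes of low genes. Genes entered the test when 3 or more libraries reached 0.5 after normalization, and passed it with an adjusted p under 0.01. Gene positions follow GENCODE M21 on the mm10 assembly.

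Ligands and receptors of the family differed between the lines in both directions. The ligands *Tnf*, *Eda*, *Tnfsf9* and *Tnfsf15* were lower in the DKSFM cells, and *Tnf* was listed at 0 in all 3 DKSFM libraries. The receptors *Tnfrsf21*, *Tnfrsf4*, *Tnfrsf18*, *Tnfrsf1a* and *Edar* were higher in these cells, while the adjacent receptor genes *Tnfrsf26*, *Tnfrsf23* and *Tnfrsf22* were lower. Of the 43 members, 19 entered the test, 14 were listed at 0 in every library and the other 10 had too little coverage. By at least 2-fold, 6 members were higher in the DKSFM cells, against a background of 13.2% of the 12409 tested genes, and 7 were lower, against 10.5%. Without the fold limit, 7 were higher and 11 lower, where 35.5% and 37.1% of all tested genes were, and 1 did not pass. In all 19 tested members the libraries of the 2 lines did not overlap, as in 83.3% of all tested genes. These counts are not independent of the filter, since a member that reached 0.5 in the libraries of 1 line only had to differ. Such members were *Tnf*, *Tnfsf15*, *Tnfsf13b*, *Edar* and *Tnfrsf9*, and *Tnfrsf25* and *Tnfrsf4* also fell short of 0.5 in some KSFM-Ca2+ libraries. Of the 12 that reached 0.5 in every library, 3 were higher by 2-fold and 4 were lower, beside 1032 higher and 955 lower of the 11112 genes that did so. The median log2 fold change was -0.84 over the tested members and 0.00 over all tested genes. It moved with the set of members tested, to -0.33 when all genes were kept and 10 low members joined. With the same 19 members it was -0.39 relative to genes within 10 Mb on either side. With only the 4 libraries whose file names are marked as combined, 3 of DKSFM and 1 of KSFM-Ca2+, it was 0.64. There *Tnf*, *Tnfsf15* and *Tnfrsf9* left the test and *Lta* entered it, and over the 16 members tested in both fits the median was 0.12 beside 0.14 with all 6 libraries.

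**Figure D1:**
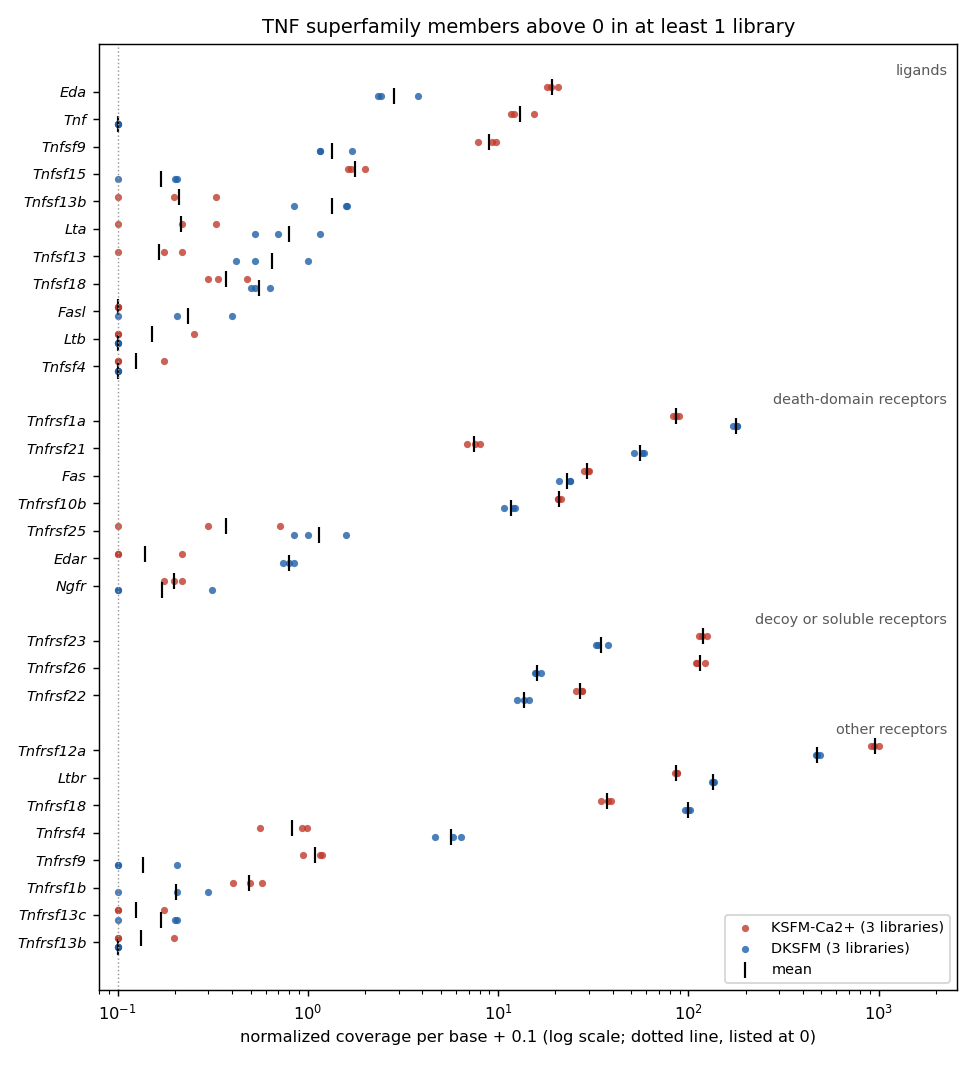
Normalized coverage per base plus 0.1, on a log axis, of the 29 members above 0 in at least 1 library, with 1 point per library, a tick at the mean of each line and a dotted line where a library is listed at 0. The DKSFM points of *Tnf* all lie on the dotted line, and the highest points are those of *Tnfrsf12a*.

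Ligands were low compared with receptors. The 17 ligands summed to 41.5, 42.2 and 46.3 in the KSFM-Ca2+ libraries and 6.9, 9.09 and 5.41 in the DKSFM libraries. The 26 receptors summed to 1435, 1465 and 1546 in the KSFM-Ca2+ cells against 1034, 1062 and 1057 in the DKSFM cells. Both sums were lower in every DKSFM library than in any KSFM-Ca2+ library. For the receptors it depended on *Tnfrsf12a*, since the other 25 summed to 528, 521 and 539.6 in the KSFM-Ca2+ cells against 561, 571 and 588 in the DKSFM cells, higher in each DKSFM library. Of the ligands 5 were tested, and 4 fell and 1 rose, each by more than 2-fold, where 10.5% and 13.2% of all tested genes did. Only *Eda* and *Tnfsf9* reached 0.5 in every library, so for the other 3 a difference followed from the filter.

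*Tnf* (chromosome 17 from 35199381 to 35202007) encodes the founding cytokine of the family. Its normalized coverage was 11.7, 12 and 15.3 in the KSFM-Ca2+ libraries and it was listed at 0 in each DKSFM library. In the KSFM-Ca2+ cells *Tnf* lay above 36.1% of tested genes, and it passed the test with an adjusted p of 9.95e-09. Having entered the test through the KSFM-Ca2+ libraries alone, it had to be lower in the DKSFM cells. No fold is given against a line listed at 0, where a step of 0.1 was worth approximately 1.82 reads of *Tnf*. The lymphotoxin genes lie on either side of *Tnf*. *Lta* (chromosome 17 from 35203165 to 35205351) had 0.229, 0 and 0.118 in the KSFM-Ca2+ libraries and 1.06, 0.6 and 0.424 in the DKSFM libraries, so it was low in both lines and higher in each DKSFM library than in any KSFM-Ca2+ library. *Ltb* (chromosome 17 from 35194439 to 35196320) was above 0 in 1 KSFM-Ca2+ library alone, at 0.152. Neither reached the filter, so neither was tested. Within 1 Mb of this locus 68 other genes were tested. Of these, 11 were higher in the DKSFM cells by 2-fold and 6 lower, where 13.2% and 10.5% of all tested genes were. The median log2 fold change of the 68 was 0.11.

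Because *Tnf* and *Lta* are adjacent and are read in the same direction, the 250 bases before each start are shown, from the RefSeq promoter table on GRCm38.p6. The *Tnf* stretch is chr17:35202008-35202257 and the *Lta* stretch chr17:35205352-35205601, both on the minus strand. The remaining stretch, chrX:99975356-99975605 on the plus strand, belongs to *Eda*, the ligand with the highest coverage. All 3 lie outside annotated exons. Capitals mark matches on either strand to a TATA box written as TATAAA, a GC box written as GGGCGG, the AP-1 site with the letters TGANTCA, or the NF-κB motif.
Tnf: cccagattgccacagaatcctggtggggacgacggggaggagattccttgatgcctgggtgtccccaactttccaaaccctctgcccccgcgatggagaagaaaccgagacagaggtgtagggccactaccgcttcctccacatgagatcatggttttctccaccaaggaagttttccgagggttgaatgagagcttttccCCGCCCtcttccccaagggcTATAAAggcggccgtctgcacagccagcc
Lta: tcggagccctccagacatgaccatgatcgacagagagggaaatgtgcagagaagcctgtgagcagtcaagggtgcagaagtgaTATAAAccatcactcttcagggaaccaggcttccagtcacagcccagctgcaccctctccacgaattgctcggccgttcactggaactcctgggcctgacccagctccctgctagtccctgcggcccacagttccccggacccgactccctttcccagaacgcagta
Eda: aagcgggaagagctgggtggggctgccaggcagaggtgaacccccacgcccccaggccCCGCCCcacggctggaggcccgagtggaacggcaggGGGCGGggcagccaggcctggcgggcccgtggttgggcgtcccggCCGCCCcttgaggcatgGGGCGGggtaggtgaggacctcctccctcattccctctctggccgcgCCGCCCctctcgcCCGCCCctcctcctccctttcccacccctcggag
A TATA box began 29 bases before the *Tnf* start and 167 bases before that of *Lta*. A single GC box lay 49 bases before the *Tnf* start, and *Eda* had 6. The *Eda* stretch was 75.6% G or C, compared with 57.6% for *Tnf*, 58.4% for *Lta* and a median of 52.4% over all promoters. Neither the NF-κB motif nor the AP-1 site was found in these 3 stretches, and bases farther upstream were not searched. Before a start of other members, the NF-κB motif was found for *Ltb*, *Tnfrsf8*, *Tnfrsf9* and *Tnfrsf25*. The AP-1 site was found for *Fas*, *Tnfrsf8*, *Tnfrsf9*, *Tnfsf13*, *Tnfsf13b* and *Tnfsf14*. Of the 32851 stretches in the table, 12.4% held the TATA box, 32.7% the GC box, 7.25% the NF-κB motif and 6.75% the AP-1 site. The table had entries for 34 of the 43 members. A match describes the letters only, and binding was not tested.

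*Eda* (chromosome X from 99975606 to 100400762) encodes ectodysplasin. It had 18, 20.7 and 18.9 in the KSFM-Ca2+ libraries and 2.34, 3.7 and 2.23 in the DKSFM libraries. All KSFM-Ca2+ values were far above all DKSFM values, and the mean was 6.97-fold lower in the DKSFM cells (log2 fold change -2.79, adjusted p = 1.74e-06). *Tnfsf9* (chromosome 17 from 57105325 to 57107757) encodes the ligand of the T cell costimulator 4-1BB. Its values were 9.22, 7.71 and 9.68 in the KSFM-Ca2+ cells against 1.06, 1.6 and 1.06 in the DKSFM cells. Here too the lines were well separated, with a log2 fold change of -2.76 (adjusted p = 1.54e-06).

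*Tnfsf15* (chromosome 4 from 63727084 to 63745113), which encodes TL1A, had 1.52, 1.58 and 1.89 in the KSFM-Ca2+ libraries and 0.106, 0.0999 and 0 in the DKSFM libraries. It was thus low in the KSFM-Ca2+ cells and at or near the rounding step in the DKSFM cells, and it passed as lower (-3.45, adjusted p = 1.99e-05). *Tnfsf13b* (chromosome 8 from 10006467 to 10039072) encodes the B cell survival factor BAFF. Its coverage was 0.229, 0.0989 and 0 in the KSFM-Ca2+ cells against 1.49, 1.5 and 0.742 in the DKSFM cells. This was the only tested ligand that was higher in the DKSFM cells (2.78, adjusted p = 0.000686). *Tnfsf15* and *Tnfsf13b* each entered the test through 1 line alone, so a difference followed from the filter. For such low genes the size of the log2 fold change depends on the pseudocount, and with a pseudocount of 1 it was -1.32 for *Tnfsf15* and 1.001 for *Tnfsf13b*.

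Receptors with a death domain moved in different directions. Of 7, 6 were tested. *Tnfrsf21*, *Tnfrsf1a* and *Edar* rose by more than 2-fold, *Fas* and *Tnfrsf10b* fell by less, and *Tnfrsf25* did not pass. Among all tested genes 13.2% were higher by 2-fold and 37.1% lower, and *Edar* entered the test through its DKSFM libraries alone. *Tnfrsf21* (chromosome 17 from 43016555 to 43089189), which encodes death receptor DR6, had 7.93, 7.42 and 6.73 in the KSFM-Ca2+ libraries and 51.8, 57.1 and 58.7 in the DKSFM libraries. Every DKSFM value was several times every KSFM-Ca2+ value. The mean was 7.59-fold higher (log2 fold change 2.91, adjusted p = 1.29e-08), and the gene went from above 27.2% of tested genes to above 69.1%. The 250 bases before its start, chr17:43016305-43016554 on the plus strand, are shown because its rise was the largest among members that reached 0.5 in every library. They held a GC box 23 bases from the start and none of the other motifs.
Tnfrsf21: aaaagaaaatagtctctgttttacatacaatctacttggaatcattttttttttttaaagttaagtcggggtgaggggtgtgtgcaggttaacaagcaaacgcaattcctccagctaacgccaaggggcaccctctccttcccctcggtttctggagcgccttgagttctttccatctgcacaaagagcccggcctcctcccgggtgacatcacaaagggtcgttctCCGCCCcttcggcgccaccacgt
*Tnfrsf1a* (chromosome 6 from 125349362 to 125362484) encodes TNFR1, the main receptor for soluble TNF. It was well covered in both lines, with 88.9, 85.7 and 83.4 in the KSFM-Ca2+ libraries and 171, 180.5 and 181 in the DKSFM libraries. The groups did not overlap, and the mean was 2.06-fold higher in the cells that had no listed *Tnf* (log2 fold change 1.04, adjusted p = 6.68e-08). Genes around it were also higher. The 135 other tested genes within 10 Mb on either side, *Ltbr* among them, had a median of 0.42, and relative to them the log2 fold change of *Tnfrsf1a* was 0.63. Within 1 Mb of *Tnfrsf1a* and its neighbour *Ltbr*, 19 of 33 other tested genes were higher and 7 lower, where 35.5% and 37.1% of all tested genes were, and their median was 0.18.

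*Edar* (chromosome 10 from 58600789 to 58675654), the ectodysplasin receptor, had 0, 0 and 0.118 in the KSFM-Ca2+ libraries and 0.637, 0.699 and 0.742 in the DKSFM libraries. It was absent or at the rounding step in the KSFM-Ca2+ cells and low in the DKSFM cells. The fitted log2 fold change was 2.61 (adjusted p = 0.000282), a size that depends on the pseudocount. With a pseudocount of 1 it was 0.705, under 2-fold. With only the libraries marked as combined its adjusted p was 0.0101 and it did not pass. Over all alternatives the adjusted p ran from 9.83e-05 to that value.

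*Fas* (chromosome 19 from 34290666 to 34327772), the receptor of Fas ligand, changed least among the tested members that passed, with 28.1, 29.7 and 30.1 in the KSFM-Ca2+ libraries and 23.9, 23.8 and 20.8 in the DKSFM libraries. The values of the lines were close but did not overlap (-0.36, adjusted p = 0.000899). *Tnfrsf10b* (chromosome 14 from 69767472 to 69784411), the death receptor for TRAIL in mice, had 20.5, 20.5 and 21.4 in the KSFM-Ca2+ cells against 11.9, 10.6 and 12.2 in the DKSFM cells. It was lower in every DKSFM library (-0.84, adjusted p = 5.73e-06), and relative to the genes within 10 Mb on either side its log2 fold change was -0.39. *Tnfrsf25*, the receptor of TL1A, had 0.61, 0.198 and 0 in the KSFM-Ca2+ libraries and 1.49, 0.899 and 0.742 in the DKSFM libraries. Although the lines did not overlap, the KSFM-Ca2+ values were spread widely and the gene did not pass (log2 fold change 1.99, adjusted p = 0.0209). Without KSFM-Ca2+ replicate 1, the highest of its line, it passed with an adjusted p of 0.00297, and over the alternatives the adjusted p ran from 0.00109 to 0.0757. *Ngfr*, the low-affinity neurotrophin receptor, was at most 0.212 in any library and was not tested.

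Of the 4 decoy or soluble receptors 3 were tested, and all 3 fell, where 37.1% of all tested genes were lower. They are neighbours on chromosome 7 and so are not separate observations. *Tnfrsf22* and *Tnfrsf23* encode decoy receptors that bind TRAIL and lack a death domain, and *Tnfrsf26* is their close relative. *Tnfrsf26* was put in this list although its role in signalling is unassigned. *Tnfrsf26* (chromosome 7 from 143607659 to 143628722) had 112, 109 and 122 in the KSFM-Ca2+ libraries and 15.7, 15.5 and 16.6 in the DKSFM libraries. Its mean was 7.17-fold lower in the DKSFM cells, with no overlap (log2 fold change -2.83, adjusted p = 2.81e-09). *Tnfrsf23* (chromosome 7 from 143665809 to 143685872) had 119, 114 and 125 in the KSFM-Ca2+ cells against 33.3, 32.7 and 38 in the DKSFM cells, and *Tnfrsf22* (chromosome 7 from 143634806 to 143649661) had 27.6, 25.7 and 27.4 in the KSFM-Ca2+ cells against 12.5, 13.6 and 14.4 in the DKSFM cells. Both were lower in every DKSFM library, *Tnfrsf23* with a log2 fold change of -1.78 (adjusted p = 6.41e-08) and *Tnfrsf22*, just short of the fold limit, with -0.99 (adjusted p = 1.86e-06). Summed over the 3 genes, coverage went from 260.2 ± 13 to 64.1 ± 4.24 (SD, n = 3). Some reads cannot be assigned between them. Of the 85-base windows in their transcripts, 11.6% of those of *Tnfrsf23* also occur in *Tnfrsf22*, and 18.7% of those of *Tnfrsf22* occur in *Tnfrsf23* or another gene, whereas *Tnfrsf26* shares none. The stretch before *Tnfrsf23*, chr7:143685876-143686125 on the minus strand, is shown for this cluster. It held a TATA box 158 bases and a GC box 92 bases before the start.
Tnfrsf23: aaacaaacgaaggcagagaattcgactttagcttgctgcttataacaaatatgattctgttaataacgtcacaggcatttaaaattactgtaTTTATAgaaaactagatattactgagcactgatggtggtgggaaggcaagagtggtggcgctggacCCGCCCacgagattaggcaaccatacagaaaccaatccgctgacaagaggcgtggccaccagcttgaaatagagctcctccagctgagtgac
Many genes around the cluster were lower as well. Of the 16 other tested genes within 1 Mb, 10 were lower in the DKSFM cells, 5 of them by 2-fold, and 3 were higher, and the median over the 16 was -0.54. Among all tested genes 37.1% were lower, 10.5% by 2-fold, and 35.5% higher. The nearest tested genes on either flank were *Cars*, with a log2 fold change of -0.66, and *Osbpl5*, with 1.01. Relative to all other tested genes within 10 Mb on either side, the rest of the cluster included, the log2 fold changes were -2.50 for *Tnfrsf26*, -1.43 for *Tnfrsf23* and -0.66 for *Tnfrsf22*.

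**Figure D2:**
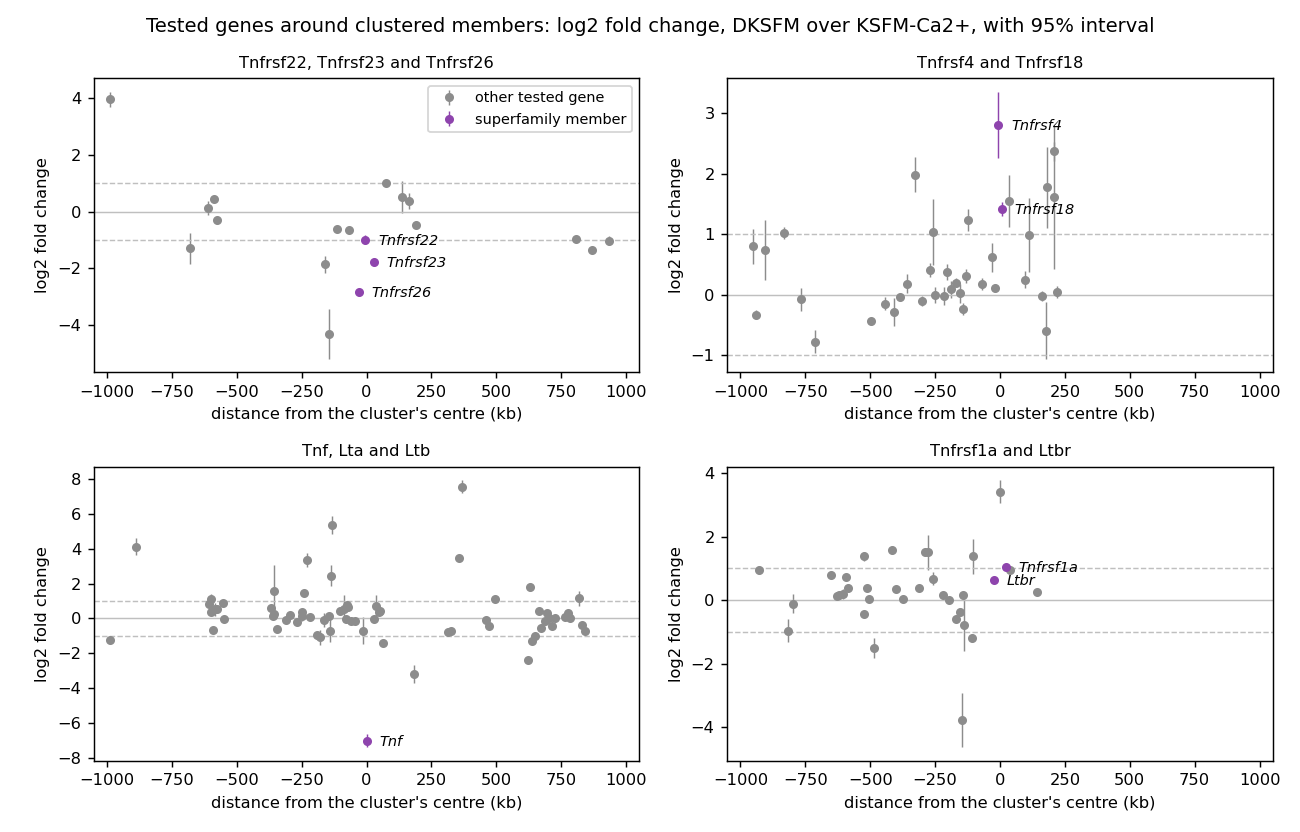
Log2 fold change, DKSFM over KSFM-Ca2+, with its 95% interval for each tested gene within 1 Mb of 4 groups of neighbouring members, against distance from the group's centre in kb. Members are labelled, and *Tnf* lies below every other tested gene near it.

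The fall of *Tnfrsf22* was close to that of *Tnfrsf10b*, the death receptor for the same ligand, and their 95% intervals overlapped. *Tnfrsf10b* made up 12.3, 12.8 and 12.3% of the summed coverage of *Tnfrsf10b*, *Tnfrsf22* and *Tnfrsf23* in the KSFM-Ca2+ libraries and 20.6, 18.6 and 18.9% in the DKSFM libraries. The share was higher in each DKSFM library, mainly through *Tnfrsf23*, and this difference was not tested. *Tnfsf10*, which encodes TRAIL itself, was listed at 0 in all 6 libraries, as was *Tnfrsf11b*, the soluble decoy osteoprotegerin.

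*Tnfrsf12a* (chromosome 17 from 23675445 to 23677468) exceeded every other member in both lines. It encodes Fn14, the receptor of TWEAK, and had 908, 944 and 1007 in the KSFM-Ca2+ libraries and 473, 491 and 468 in the DKSFM libraries. The DKSFM values were all lower, with a log2 fold change of -0.996 (adjusted p = 1.42e-07). This lies just under the 2-fold limit, which it crossed in 6 of 18 alternatives, and it ranged from -1.095 to -0.956. Its share of all members' coverage was 61.5, 62.7 and 63.2% in the KSFM-Ca2+ libraries and 45.5, 45.8 and 44.1% in the DKSFM libraries, lower in each of the latter. Even so the gene lay above 96.6% of tested genes in the DKSFM cells.

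*Tnfrsf12a* was among 15 other receptors, of which 5 were tested. *Ltbr*, *Tnfrsf18* and *Tnfrsf4* rose, and *Tnfrsf9* fell like *Tnfrsf12a*, where 35.5% of all tested genes were higher and 37.1% lower. *Ltbr* (chromosome 6 from 125306571 to 125313885), the lymphotoxin beta receptor, had 84.5, 86.8 and 86.6 in the KSFM-Ca2+ libraries and 135, 133 and 137 in the DKSFM libraries. The lines were apart by far more than the spread within each (0.65, adjusted p = 2.20e-07), and relative to the surrounding genes the log2 fold change was 0.205. *Tnfrsf18* (chromosome 4 from 156026164 to 156028895) encodes GITR, best known from regulatory T cells. It had 37.7, 39 and 34.5 in the KSFM-Ca2+ cells against 99.1, 96.4 and 102 in the DKSFM cells, a mean 2.68-fold higher with no overlap (log2 fold change 1.42, adjusted p = 6.87e-08). Next to it lies *Tnfrsf4* (chromosome 4 from 156013843 to 156016612), which encodes the T cell costimulator OX40 and had 0.457, 0.89 and 0.826 in the KSFM-Ca2+ libraries and 4.57, 6.3 and 5.72 in the DKSFM libraries. It was 7.63-fold higher in the mean, at a much lower level than *Tnfrsf18* (2.80, adjusted p = 9.76e-06). With a pseudocount of 1 the log2 fold change of *Tnfrsf4* was 1.92. Of the 36 other tested genes within 1 Mb of the pair, 16 were higher, 7 of them by 2-fold, and 4 were lower, with a median of 0.18. Among all tested genes 35.5% were higher, 13.2% by 2-fold, and 37.1% lower. *Tnfrsf9* (chromosome 4 from 150914562 to 150946102), which encodes 4-1BB, had 0.838, 1.09 and 1.06 in the KSFM-Ca2+ cells against 0, 0 and 0.106 in the DKSFM cells. It was low in the KSFM-Ca2+ cells and at 0 or the rounding step in the DKSFM cells (-3.10, adjusted p = 6.92e-05), and with a pseudocount of 1 the log2 fold change was -0.95. Since *Tnfrsf9* entered the test through the KSFM-Ca2+ libraries alone, it had to be lower in the DKSFM cells.

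**Figure D3:**
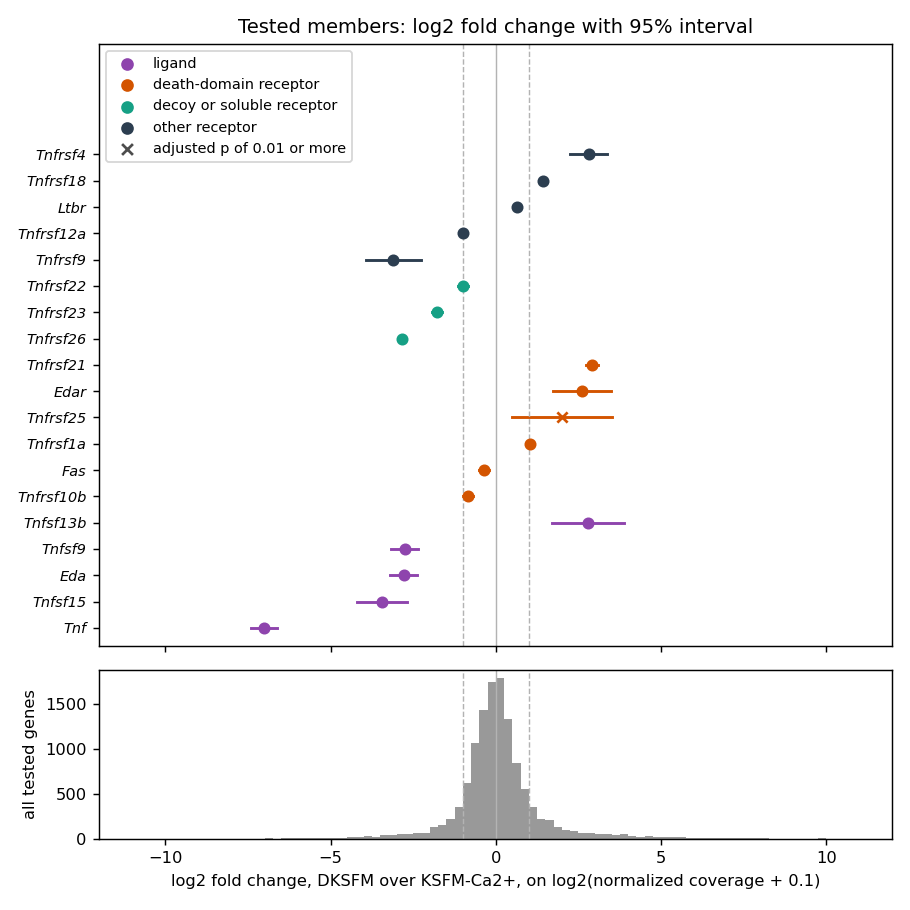
Upper panel, log2 fold change with its 95% interval for the 19 tested members, coloured by role, with a cross for *Tnfrsf25*, which did not pass. Lower panel, the same quantity for all 12409 tested genes, with dashed lines at 2-fold in each direction.

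Set side by side, the receptors *Tnfrsf12a*, *Tnfrsf18* and *Fas* had no ligand at a comparable level in the same cells. *Tnfrsf12a* stood beside *Tnfsf12*, which encodes TWEAK and was listed at 0 in every library. *Tnfsf12* and *Tnfsf13* share 45.4% and 55.1% of their windows with the read-through gene *Tnfsfm13*, so their coverage is uncertain. *Tnfsf13*, which encodes APRIL, had 0.0762, 0 and 0.118 in the KSFM-Ca2+ libraries and 0.318, 0.899 and 0.424 in the DKSFM libraries, low in both lines. *Tnfsf18*, the ligand of GITR, was at most 0.531 and *Tnfsf4*, that of OX40, at most 0.0762. *Fasl*, the ligand of *Fas*, was at most 0.3. Where a ligand was present, ligand and receptor moved apart in some pairs and together in others. *Tnf* and *Eda* were lower while *Tnfrsf1a* and *Edar* were higher in the DKSFM cells, and *Tnfsf9* and *Tnfrsf9* were both lower. Of these receptors *Edar* and *Tnfrsf9* were low in both lines and entered the test through 1 line alone. *Tnfsf15* was lower while its receptor *Tnfrsf25* did not pass. The other TNF receptor, *Tnfrsf1b*, had 0.305, 0.396 and 0.472 in the KSFM-Ca2+ cells against 0, 0.2 and 0.106 in the DKSFM cells. It was at most a trace in either line and did not reach the filter. *Tnfrsf13b* and *Tnfrsf13c*, which encode receptors of BAFF, were at most 0.0989 and 0.106, and their relative *Tnfrsf17* was listed at 0.

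**Figure D4:**
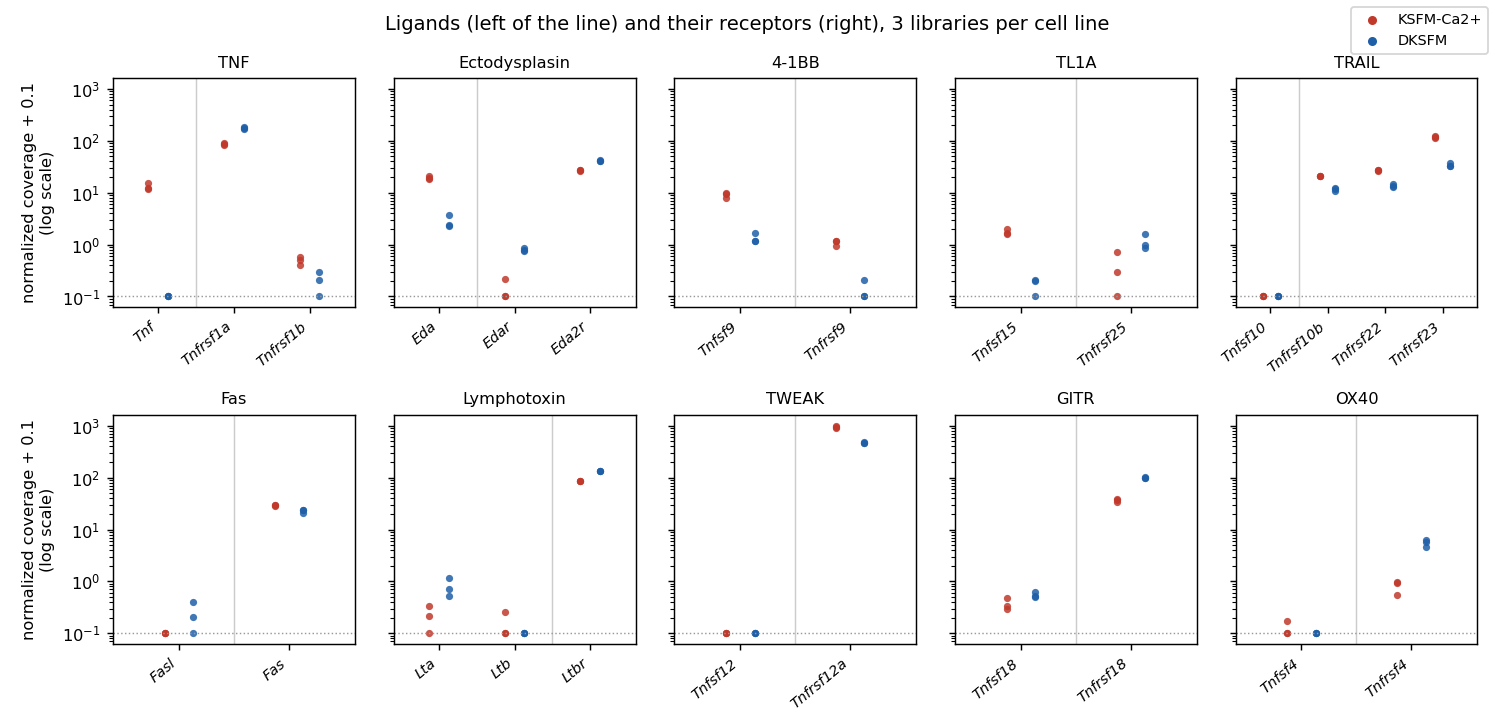
Normalized coverage plus 0.1, on a log axis, of ligands and their receptors in 10 systems, with 1 point per library and a dotted line where a library is listed at 0. Red points are KSFM-Ca2+ and blue points DKSFM libraries, and for TWEAK and TRAIL the ligand lies on the dotted line in both lines.

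The 14 members listed at 0 in every library were the ligands *Tnfsf8*, *Tnfsf10*, *Tnfsf11*, *Tnfsf12*, *Tnfsf14* and *Cd70* and the receptors *Tnfrsf8*, *Tnfrsf11a*, *Tnfrsf11b*, *Tnfrsf14*, *Tnfrsf17*, *Tnfrsf19*, *Cd27* and *Cd40*. Many of these are known from lymphocytes or bone. The whole RANK system was among them, the ligand *Tnfsf11* with its receptor *Tnfrsf11a* and its decoy *Tnfrsf11b*. Listed at 0 says no more than that the coverage was below the rounding step, at an approximate depth of 21.1 to 32.3 M reads per library.

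Of the 3 superfamily genes whose symbols the rule does not take, *Eda2r* and *Relt* were tested and *Cd40lg* was listed at 0. *Relt*, a receptor without an established ligand of the family, had 5.94, 5.93 and 7.08 in the KSFM-Ca2+ libraries and 2.97, 2.8 and 2.33 in the DKSFM libraries. It was lower in each DKSFM library (-1.20, adjusted p = 3.17e-05). *Eda2r*, which encodes the other ectodysplasin receptor and was singled out after its values were seen, had 27, 27.7 and 25.8 in the KSFM-Ca2+ cells against 41.1, 42.1 and 41.2 in the DKSFM cells. It was higher in each DKSFM library (0.63, adjusted p = 2.13e-06) and far above *Edar* in both lines.

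Of 9 genes that process the ligands, 6 were higher, 2 lower and 1 did not pass, beside 35.5% higher and 37.1% lower among all tested genes. Only *Timp3* exceeded 2-fold. *Timp3*, which encodes an inhibitor of the TNF sheddase ADAM17, was listed at 0 in every KSFM-Ca2+ library and had 1.8, 2 and 2.12 in the DKSFM libraries. It was thus low even where it was present, and no fold is given. As it entered the test through the DKSFM libraries alone, it had to be higher. *Adam17* itself, singled out after its values were seen, had 156, 149 and 142 in the KSFM-Ca2+ cells against 234, 240.1 and 234 in the DKSFM cells. It was higher in each DKSFM library, at less than 2-fold (0.66, adjusted p = 9.03e-07).

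Among the 37 genes of receptor-proximal signalling, 35 were tested, 16 were lower, 6 higher and 13 did not pass, where 37.1% of all tested genes were lower and 35.5% higher. All 8 that changed by 2-fold were lower in the DKSFM cells, against 10.5% of all tested genes, and of these only *Ripk3* did not reach 0.5 in every library. The largest falls were in the necroptosis genes *Ripk3* and *Mlkl*, which encode the kinase and the membrane-rupturing effector of that form of cell death. *Ripk3* (chromosome 14 from 55784995 to 55788865) had 35.8, 37.4 and 42.7 in the KSFM-Ca2+ libraries and 0.531, 0.5 and 0.424 in the DKSFM libraries. *Mlkl* (chromosome 8 from 111311797 to 111338177) had 197, 199.8 and 215 in the KSFM-Ca2+ cells against 18.5, 17.9 and 18.1 in the DKSFM cells. In both genes every KSFM-Ca2+ value was many times every DKSFM value, with a log2 fold change of -6.05 for *Ripk3* (adjusted p = 2.33e-09) and -3.48 for *Mlkl* (adjusted p = 3.64e-10). Genes within 10 Mb on either side had a median of 0.00 for *Ripk3* and -0.51 for *Mlkl*. Next came *Cflar* (chromosome 1 from 58711508 to 58758884), which encodes the caspase 8 inhibitor c-FLIP and had 107, 106 and 115 in the KSFM-Ca2+ libraries and 25.5, 27 and 29.3 in the DKSFM libraries. It was lower in each DKSFM library (-2.002, adjusted p = 2.31e-08), and the genes within 10 Mb on either side had a median of -0.52. *Casp8*, the caspase that c-FLIP restrains, and *Fadd*, the adaptor that recruits it, were also lower, with log2 fold changes of -1.40 and -1.02 (adjusted p = 1.41e-07 and 2.22e-06). Genes within 10 Mb of them were lower too, with medians of -0.52 and -0.38, and relative to these neither change reached 2-fold. *Casp8* lies beside *Cflar* on chromosome 1, and *Fadd* within 1 Mb of the *Tnfrsf26* cluster, so these falls are not all separate observations. The kinase gene *Ripk1*, upstream of both death and inflammatory signalling, had 42.3, 41.2 and 42.7 in the KSFM-Ca2+ cells against 36.6, 41.7 and 42 in the DKSFM cells. These values overlapped, and the gene did not pass (adjusted p = 0.269). *Casp8*, *Fadd* and *Ripk1* were chosen after their values were seen.

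TNF target genes, taken from general knowledge but with earlier results of these data known, were mostly lower in the DKSFM cells. Of 22, 17 were tested, 15 were lower, 13 of them by 2-fold, 1 was higher and 1 did not pass, where 37.1% of all tested genes were lower and 10.5% lower by 2-fold. The list shares genes with that of receptor-proximal signalling, and *Cxcl1*, *Cxcl2* and *Cxcl5* lie close together on chromosome 5. The genes counted are therefore not all separate observations. The paper had already listed *Nfkbia*, *Ier3*, *Ccl2*, *Cxcl1* and *Cxcl5* as lower in the DKSFM cells, so the counts are not independent of these data. *Ccl20*, *Vcam1* and *Csf2*, the last 2 named after their values were seen, entered the test through the KSFM-Ca2+ libraries alone and had to be lower, and with a filter on every library 10 of 14 were lower by 2-fold. The 3 largest falls were in chemokine genes that attract leukocytes. *Ccl20* had 106, 103 and 113 in the KSFM-Ca2+ libraries and 0.212, 0.2 and 0.212 in the DKSFM libraries. *Ccl2* had 248, 251 and 294 in the KSFM-Ca2+ cells against 1.49, 0.999 and 1.7 in the DKSFM cells. *Cxcl1* had 1661, 1782 and 1994 in the KSFM-Ca2+ cells against 10.5, 10.4 and 11.9 in the DKSFM cells. All 3 went from ample coverage in each KSFM-Ca2+ library to little in each DKSFM library, with log2 fold changes of -8.44, -7.49 and -7.36 in the same order (adjusted p = 1.27e-10, 6.41e-09 and 1.92e-10). The exception was *Icam1*, which encodes an adhesion molecule for leukocytes and had 5.94, 6.13 and 6.84 in the KSFM-Ca2+ libraries and 29.9, 32 and 32 in the DKSFM libraries. It was higher in each DKSFM library (2.30, adjusted p = 2.66e-08). These genes answer to several cytokines, and whether TNF had a part in their levels was not tested.

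**Figure D5:**
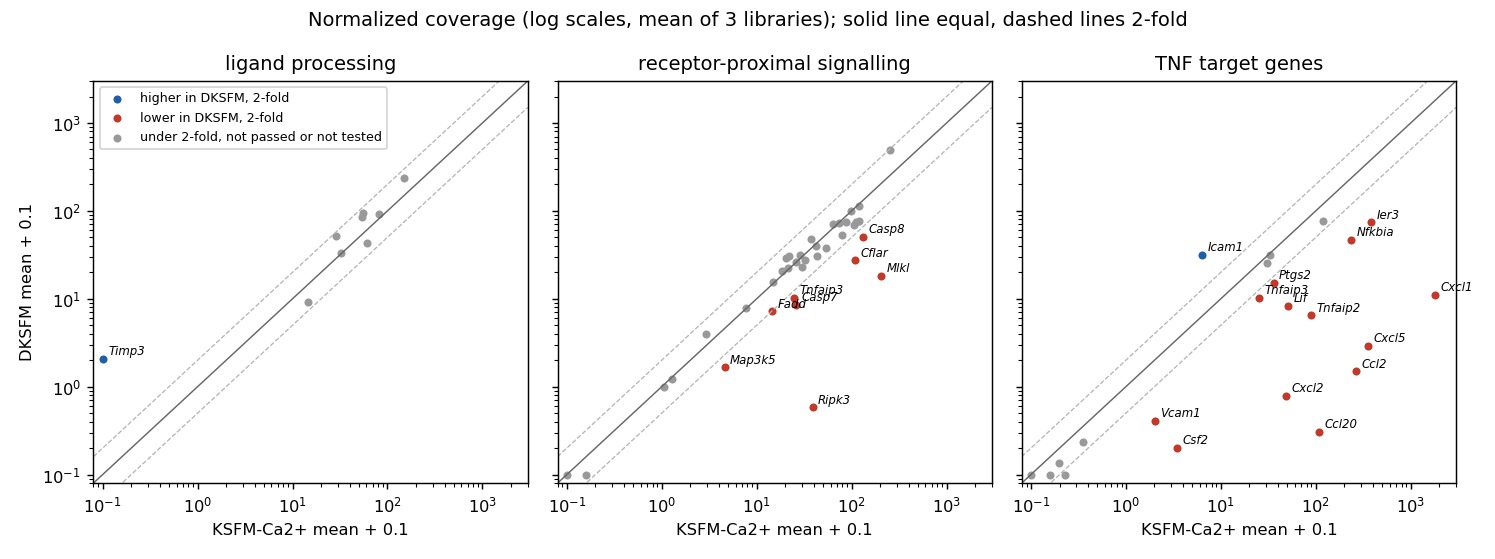
Mean normalized coverage plus 0.1 of 3 DKSFM libraries against that of 3 KSFM-Ca2+ libraries, on log axes, for genes of ligand processing, receptor-proximal signalling and TNF targets, with a solid line at equality and dashed lines at 2-fold. Red genes passed the test and were lower by 2-fold, and *Ripk3* and *Ccl20* lie farthest below the line in their panels.

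Since several members are best known from immune cells, markers of other cell types were looked at. All 8 keratinocyte markers were above 0, with a summed coverage of 19217, 19615 and 19254 in the KSFM-Ca2+ libraries and 45271, 41358 and 45661 in the DKSFM libraries, most of it *Krt14*. The higher DKSFM sum came mainly from *Krt14* and *Krt5*, while *Itgb4* and *Cdh1*, named after their values were seen, were lower there (log2 fold changes of -0.74 and -0.13). For *Cdh1* the paper reports the other direction, with increased expression in the DKSFM cells by qPCR. That qPCR was normalized to *Gapdh*, which was itself lower in the DKSFM cells here (log2 fold change -0.60), so these measures are not alike. The paper also shows E-cadherin at the junctions of the DKSFM cells by staining. Of 8 leukocyte markers listed, 5 were above 0, with sums of 1.3, 1.58 and 2.01 in the KSFM-Ca2+ cells against 0.106, 0.2 and 0.106 in the DKSFM cells. In the KSFM-Ca2+ cells nearly all of this was *Cd74*, with a mean of 1.53, and *Cd74* was listed at 0 in the DKSFM cells like *Tnf*. The general leukocyte marker *Ptprc* was listed at 0 in every KSFM-Ca2+ library, and *Cd3e*, *Cd3g* and *Adgre1* were at 0 in all libraries. Of the 8 fibroblast markers only *Pdgfra* was above 0, with 1.14, 0.89 and 1.3 in the KSFM-Ca2+ cells against 2.34, 2.1 and 2.23 in the DKSFM cells, and *Col1a1*, *Col1a2*, *Col3a1*, *Pdgfrb*, *Dcn*, *Lum* and *Thy1* were at 0. Of 4 endothelial markers 3 were above 0, with sums of 2.82, 3.16 and 3.3 against 8.28, 8.29 and 7.42 that were mostly *Pecam1*, and *Cdh5* was at 0. The endothelial and fibroblast sums were thus higher in the DKSFM cells. Of 6 melanocyte markers 4 were above 0, with sums of 0.533, 0.89 and 0.708 against 0.318, 0.699 and 0.212 and *Pmel* the highest, while *Dct* and *Tyr* were at 0. Of 3 Merkel cell markers 2 were above 0, with sums of 1.07, 0.791 and 0.472 against 0.849, 0.699 and 0.848 that were mostly *Isl1*, and *Atoh1* was at 0. These last sums were low and overlapped between the lines.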

How the data were processed

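RNA-seq files of 6 libraries, 3 per line, were used, with groups and replicate numbers taken from the sample labels. Per the submitters' notes, reads were demultiplexed with bcl2fastq and aligned to mm10 with STAR, and the authors compared the lines with DESeq2. The signal they deposited is the mean read coverage per base of 24982 genes, not scaled to library size, and how it was computed is not given in the sources used here. Coverage is not a count, so limma was used, as planned for that case. Libraries were scaled by unweighted TMM factors (trims of 30% of M and 5% of A values), which ran from 0.991 to 1.01. The model compared the lines with an intensity trend, a pseudocount of 0.1 and no covariate. Benjamini-Hochberg adjustment covered the 12409 genes with 0.5 or more in 3 libraries, or in 2 where libraries were left out. The procedure was tested on simulated data. Counting error could not be computed from coverage. Approximate reads, 21.1 to 32.3 M per library, were coverage times the median length of a gene's coding transcripts over the read length of 85 bases, with GENCODE M21 (GRCm38) symbols matched for 24490 genes. The mean number of reads per sample that the paper gives lies within this range. Since not all of those reads fell in exons, the estimates may be too high.

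Library values and tests are given for each member that passed by 2-fold or had a mean of at least 10 in either line, and from the other lists for up to 3 genes with the largest change in each direction past both limits. The members and lists were chosen with earlier results of these data known. Lists were ligands, death-domain receptors, decoy or soluble receptors, other receptors, superfamily genes outside the symbol rule, ligand processing, receptor-proximal signalling, TNF targets and markers of 6 cell types. A planned leukocyte marker is not reported here. Alternatives were 3 other scalings, all genes kept, a filter on all libraries, pseudocounts of 0.5 and 1, no trend, a replicate block, an adjusted p of 0.05, each library left out in turn, the 4 libraries whose file names are marked as combined (a word the sources do not explain), and, added after seeing the data, fold changes relative to genes within 10 Mb on either side. Work was done in R 4.3.3 with limma 3.58.1, and figures were drawn with matplotlib 3.10.9 under Python 3.11.15.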

Additional observations from a re-analysis of the deposited data

How the results depend on the processing

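No tested member changed direction under any alternative in which it was tested. Where the fit or its threshold was changed, 306 of 313 values of single members stayed on their side of the adjusted p threshold, while *Tnfrsf25* passed in 6 and *Edar* did not pass in 1. The 2-fold limit was crossed by 6 members, *Tnfrsf12a* in 6 alternatives, *Tnfrsf22* in 5, *Edar*, *Tnfrsf9* and *Tnfrsf25* at a pseudocount of 1, and *Tnfrsf1a* relative to surrounding genes. The median of all genes stayed within 0.05 of 0 under each scaling. With a filter on every library, which removes *Tnf*, *Tnfsf15*, *Tnfsf13b*, *Edar*, *Tnfrsf25*, *Tnfrsf4* and *Tnfrsf9*, 3 members were higher and 4 lower by 2-fold, and of all 11112 genes kept 1032 were higher and 955 lower. The median over tested members, -0.84 in the report, was -0.33 when all genes were kept and -0.39 relative to genes within 10 Mb on either side, a correction chosen after seeing the data that keeps the p-values of the report. It ranged from -0.85 to -0.58 with each library left out, where *Lta* entered the test in 4 of the fits. With the combined libraries alone, 1 KSFM-Ca2+ library against 3, it was 0.64, as *Tnf*, *Tnfsf15* and *Tnfrsf9* left the test and *Lta* entered it. Over the 16 members tested in both fits it was 0.12 there and 0.14 in the report's fit. The lone library is assumed to vary like the others. Scaling by library totals gave 9 members lower by 2-fold, with *Tnfrsf12a* and *Tnfrsf22* just past the limit.

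With a replicate block 7 members were higher and 7 lower by 2-fold, the change being *Tnfrsf25* (adjusted p = 0.00361, in a range from 0.00109 to 0.0757), and of all genes 1641 were higher and 1304 lower. Libraries that share a number did not deviate together (correlations of -0.00508, 0.0239 and -0.0061), and not every library correlated best with its own number, so the numbers do not pair the samples. Depth limits the members near the step of 0.1, whose log2 fold changes shrink with a larger pseudocount, to -1.32 for *Tnfsf15* and -0.95 for *Tnfrsf9* at a pseudocount of 1.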
